A study of Mus musculus with 6 samples.

Results

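This report describes 9 genes, of 32286 measured, in mouse liver immune cells: Ccl1, Penk, C2cd4b, Igfbp7, Nrn1, Gpm6b, Spp1, Slc16a11 and Cd200r2. They were proposed after earlier results of the same libraries, as genes that mark the CD90.1-high CD8 T cells of the AAV-sgSCR library. Their levels in these cells chose them, so those levels are a description and support nothing by themselves.

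Single-cell RNA and surface antibody tags were measured in immune cells of mouse livers on day 30 after infection. The 3 groups were mock, AAV-sgSCR (an adeno-associated virus with a guide RNA that the labels call the control) and AAV-sgBaat (a guide RNA against Baat, the hepatocyte enzyme that conjugates bile acids). Each group is 1 library made from a pool of 3 tumor samples, so there is no replicate, no test and no p-value, and library and treatment cannot be told apart. The labels also title the mock library native liver, so whether the mock livers carried tumors is unclear. CD45hi CD3+ T cells and the remaining CD45hi cells were sorted separately before capture, and the labels give neither strain, age nor where the CD90.1 cells came from.

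CD90.1 and CD90.2 are the proteins of 2 alleles of Thy1, a surface molecule of mouse T cells, and antibody tags tell them apart on each cell. A CD8 T cell that meets its antigen for a long time in a tumor or a chronic infection can turn into an exhausted cell, which keeps PD-1 and the transcription factor Tox. Within such cells a progenitor-like pool that keeps Tcf7 and Slamf6 is commonly set against more differentiated cells that carry granzymes and chemokines. Of the 9 genes, 4 encode secreted proteins: Ccl1 (a chemokine for the receptor Ccr8), Penk (proenkephalin, the precursor of opioid peptides), Igfbp7 (an insulin-like growth factor binding protein) and Spp1 (osteopontin, which binds integrins and Cd44). Another 3 encode membrane proteins: Nrn1 (neuritin, held by a lipid anchor), Gpm6b (a proteolipid family glycoprotein) and Cd200r2 (a CD200 receptor family member). Slc16a11 is a monocarboxylate transporter family member, and C2cd4b is a C2 domain protein.

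On GRCm38.p6 (the build the files call mm10) RefSeq places Ccl1 at chr11:82176666-82179812, Penk at chr4:4133536-4138815, Igfbp7 at chr5:77349240-77408045 and Spp1 at chr5:104435111-104441053. Nrn1 lies at chr13:36725622-36734477, Gpm6b at chrX:166238943-166389033 and Cd200r2 at chr16:44867097-44915840. Slc16a11 lies at chr11:70213695-70216414 and C2cd4b at chr9:67716224-67760933.

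The members were proposed as marks of the same cell population. The 250 bases before the start sites of the 7 members with a RefSeq promoter entry (all but Penk and Nrn1) were therefore searched on both strands for 7 short motifs. These were AP-1 (TGANTCA), NBRE of the NR4A factors (AAAGGTCA), kappa B, RUNX (TGTGGT), TCF/LEF (CTTTGA), NFAT (GGAAAA) and CRE (TGACGTCA), and none of these patterns contains another. No motif was found in more than 2 of the 7 members. NFAT letters were found in Ccl1 and Spp1 (20.4% of 32851 promoters hold them), RUNX letters in Spp1 and Cd200r2 (14.05% of promoters), and a CRE in Gpm6b (1.546%). AP-1 (6.749%), NBRE (1.336%), kappa B (1.412%) and TCF/LEF (13.83%) letters were in 0 of 7. A match is a description of letters and not a binding site. The 4 windows with a match are printed below 5′ to 3′ on the gene's strand from GRCm38.p6, with the matches in capitals. They are chr11:82179813-82180062 (minus strand, NFAT on the opposite strand at -117 and -87), chr5:104434861-104435110 (plus strand, RUNX on the opposite strand at -128), chrX:166238693-166238942 (plus strand, CRE at -49) and chr16:44866847-44867096 (plus strand, RUNX on the opposite strand at -75). The NFAT match of Spp1 lies in a further RefSeq window of that gene, which is not printed.
Ccl1: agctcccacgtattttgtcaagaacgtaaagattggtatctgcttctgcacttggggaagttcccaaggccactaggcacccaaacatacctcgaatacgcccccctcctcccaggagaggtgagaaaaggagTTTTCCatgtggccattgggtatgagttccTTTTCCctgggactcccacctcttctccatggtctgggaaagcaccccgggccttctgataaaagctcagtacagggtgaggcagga
Spp1: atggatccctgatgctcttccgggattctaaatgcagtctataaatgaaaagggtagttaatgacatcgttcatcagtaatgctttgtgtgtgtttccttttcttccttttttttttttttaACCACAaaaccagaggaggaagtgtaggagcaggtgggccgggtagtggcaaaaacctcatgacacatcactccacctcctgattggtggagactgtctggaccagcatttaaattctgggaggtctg
Gpm6b: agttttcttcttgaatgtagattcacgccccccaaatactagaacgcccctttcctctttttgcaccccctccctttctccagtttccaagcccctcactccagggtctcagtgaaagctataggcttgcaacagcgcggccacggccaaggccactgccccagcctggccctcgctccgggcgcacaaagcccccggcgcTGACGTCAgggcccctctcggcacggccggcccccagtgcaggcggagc
Cd200r2: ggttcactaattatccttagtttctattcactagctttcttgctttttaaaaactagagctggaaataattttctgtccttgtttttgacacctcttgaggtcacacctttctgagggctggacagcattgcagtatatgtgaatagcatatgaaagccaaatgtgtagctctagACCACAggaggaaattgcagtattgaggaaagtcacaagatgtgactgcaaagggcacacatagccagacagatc

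The filters (at least 500 genes and 1000 gene UMIs, at most 10% mitochondrial) kept 6068, 7332 and 7094 barcodes of mock, AAV-sgSCR and AAV-sgBaat, whose libraries held 32005400, 62570529 and 48359443 gene UMIs. A UMI is 1 counted RNA molecule. CD8 cells with more CD90.1 than CD90.2 tag (at least 100 of both together) are called CD90.1-dominant. There were 12 in mock, 1024 in AAV-sgSCR (median 4901 UMIs) and 219 in AAV-sgBaat (median 3778), against 508, 636 and 327 CD90.2-dominant CD8 cells. The gate held against its markers: in the AAV-sgSCR and AAV-sgBaat CD90.1-dominant cells Cd3e, Cd8a and Cd8b1 were each found in 89.0% to 95.5% of cells, as the gate on these genes leads to, and Cd4 was 0 by the gate. A further 764 AAV-sgSCR and 286 AAV-sgBaat barcodes of this tag type were left out because they carried another lineage's panel. Libraries shared 27 to 42 barcodes each with another library, and 5 of the 1024 AAV-sgSCR cells carried a shared one. Without shared barcodes the counts of members past 4-fold stayed at 7 and 9, the share of cells with 2 or more members was 33.5% in place of 33.4%, and 5 in place of 4 members had their highest level in those cells.

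In CD90.1-dominant CD8 cells, 8 of the 9 members were higher in AAV-sgSCR than in AAV-sgBaat, and Cd200r2 was the exception. At least 4-fold higher were 7 members (Ccl1, Penk, C2cd4b, Igfbp7, Nrn1, Gpm6b and Spp1), where 0.443% of the 7903 genes with at least 20 UMIs in the higher population were that much higher. The members were chosen on this contrast, so nothing is read from the count. Their median log2 ratio was 2.98 and that of all genes 0.11. Levels are UMIs scaled to the gene UMIs of the population (CPM). The 95% intervals beside them are exact Poisson ones and leave out all variation between animals, libraries and cells. They treat each UMI as independent, so they are too narrow where few cells hold most of the UMIs, as for Ccl1 and Penk. After every cell was thinned to 2000 UMIs, 5 members passed 4-fold: Igfbp7, Nrn1, Gpm6b, Spp1 and also Slc16a11 (log2 2.27), while Ccl1 (1.95), Penk (1.54) and C2cd4b (1.60) did not.

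**Figure D1:**
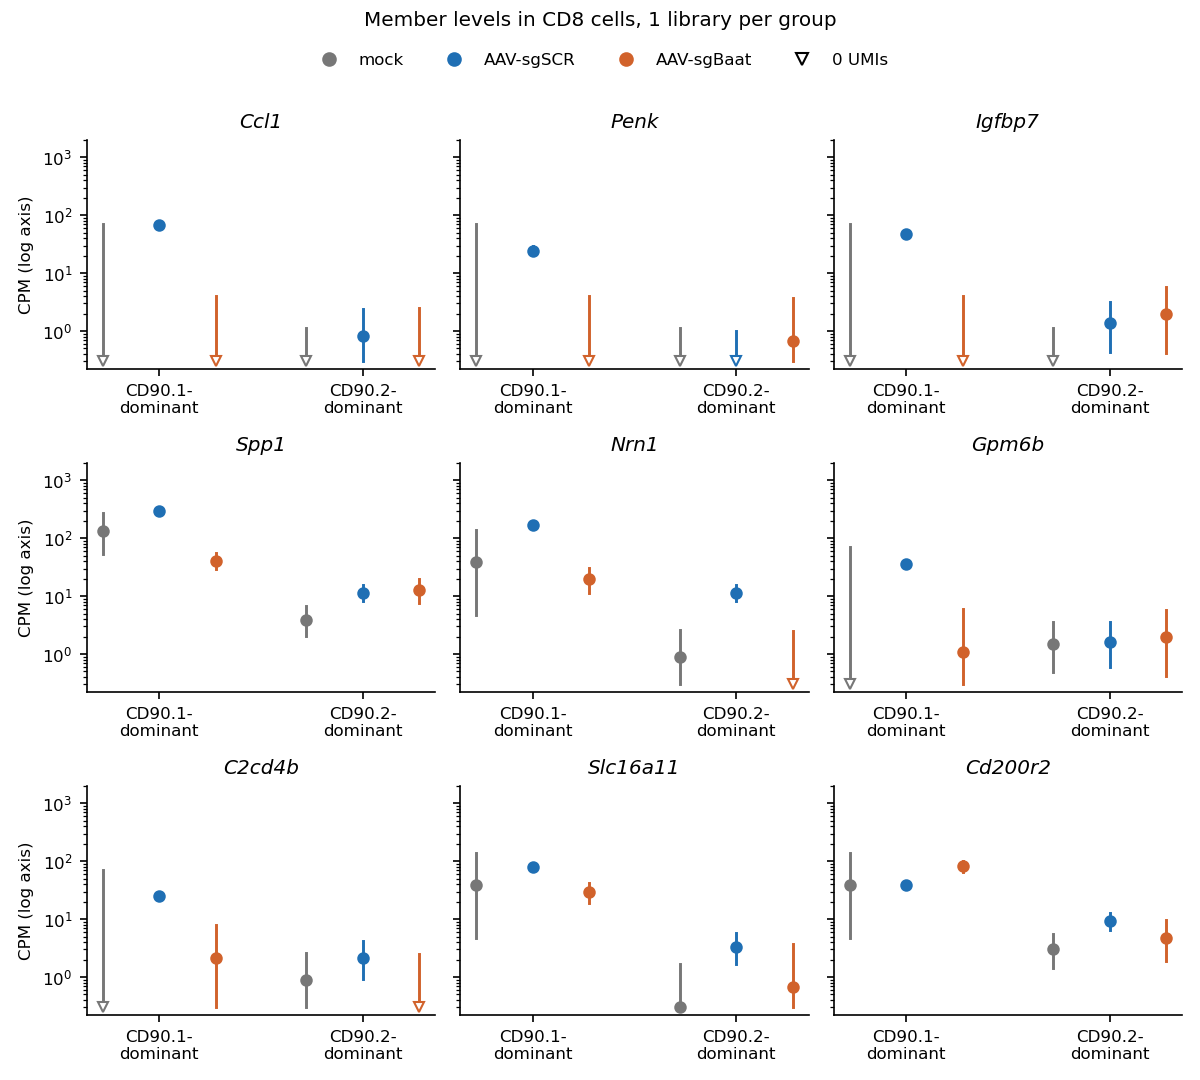
Level of each member (CPM, log axis) in CD90.1- and CD90.2-dominant CD8 cells of the 3 libraries, 1 library per group. Points are sums over cells, lines are exact Poisson 95% intervals cut at 0.3 CPM, and open triangles mark 0 UMIs. The AAV-sgSCR CD90.1-dominant point is above the AAV-sgBaat one in 8 panels and below it for Cd200r2.

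Among the secreted proteins, Spp1 had the highest count, with 1686 UMIs (294 CPM, 280.3 to 309) in AAV-sgSCR and 38 (40.9, 29.0 to 56.2) in AAV-sgBaat, a ratio of 7.19 (5.21 to 10.2). It was found in 217 of the 1024 cells and 21 of the 219. Igfbp7 gave 273 UMIs in 124 AAV-sgSCR cells (47.6 CPM, 42.1 to 53.6) and 0 in AAV-sgBaat, which is at least 14.7-fold higher when 3 counts stand for 0. At the AAV-sgSCR level, 44.2 Igfbp7 UMIs would have been counted in AAV-sgBaat. Both were spread over many cells, and the 5 richest cells held 17.3% of Spp1 and 16.5% of Igfbp7 UMIs.

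Ccl1 and Penk were carried by few cells. Ccl1 gave 382 UMIs (66.7 CPM) in AAV-sgSCR and 0 in AAV-sgBaat, at least 20.6-fold higher, but 359 of the 382 lay in 2 of the 16 positive cells. Without the 5 richest cells 12 UMIs were left (2.12 CPM), under the 3.23 CPM that 3 counts stand for in AAV-sgBaat, so the direction is not shown there. The richest cell held 245 Ccl1 UMIs beside Igfbp7, Nrn1, Gpm6b and Spp1, and the next held 114 beside 7 other members. Penk gave 141 UMIs (24.6 CPM) and 0, at least 7.62-fold higher, with 84 UMIs in 1 cell of 15 and 3.69 CPM without the 5 richest cells. For both genes a group value is mostly the value of 1 or 2 cells.

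Among the membrane proteins, Nrn1 was the most widely found member, in 308 of 1024 AAV-sgSCR cells with 965 UMIs (168 CPM, 158 to 179). In AAV-sgBaat it had 18 UMIs in 14 of 219 cells (19.4 CPM, 11.5 to 30.6), a ratio of 8.69 (5.47 to 14.7). Gpm6b had 202 UMIs in 125 cells and 1 UMI, a ratio of 32.7 with a wide interval (5.81 to 1299), or 10.9 when 3 counts stand for the 1. C2cd4b likewise had 146 UMIs in 77 cells and 2 UMIs, a ratio of 11.8 (3.22 to 98.6), or 7.89 with 3 counts. These 3 genes were thus rare or near absent in the AAV-sgBaat cells and spread over many AAV-sgSCR cells.

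Slc16a11 and Cd200r2 did not pass 4-fold. Slc16a11 had 462 UMIs in 231 AAV-sgSCR cells (80.6 CPM, 73.4 to 88.3) and 27 UMIs in 19 AAV-sgBaat cells (29.1, 19.2 to 42.3), a ratio of 2.77 (1.88 to 4.25). Its log2 ratio of 1.47 was 2.27 after thinning and 2.20 without its 5 richest cells, both past 4-fold. Cd200r2 had 227 UMIs in 158 AAV-sgSCR cells (39.6 CPM, 34.6 to 45.1) and 76 UMIs in 52 AAV-sgBaat cells (81.8, 64.5 to 102), so AAV-sgSCR stood at 0.484 of AAV-sgBaat (0.372 to 0.636). This direction depends on the gate. With the immature T barcodes kept, which raised the AAV-sgBaat cells from 219 to 525, the log2 ratio of Cd200r2 was 1.04 in place of -1.05, and that of Slc16a11 3.31 in place of 1.47. The AAV-sgBaat immature T class, from which the added barcodes come, held 4 Cd200r2 UMIs in 809 cells (0.496 CPM). Cd200r2 has close paralogs, and how reads shared among them were counted was not tested.

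Shares of cells at equal depth had the same direction for the members below. With each cell thinned to 2000 UMIs (1002 and 190 cells deep enough), Nrn1 was found in 19.96% of AAV-sgSCR and 4.21% of AAV-sgBaat CD90.1-dominant cells, Spp1 in 15.3% and 4.21%, and Slc16a11 in 11.1% and 3.16%. Igfbp7 was in 7.19%, Gpm6b in 6.59% and Penk in 0.998% of AAV-sgSCR cells. Each of these 3 was in 0 of 190 AAV-sgBaat cells, which by a limit of 3 cells allows a share of up to 1.58%. Cd200r2 was in 8.28% and 17.9%. AAV-sgSCR B cells, which should lack these genes and had a median of 2900 UMIs, gave 0% for Nrn1 (0 of 635, which allows up to 0.472%), 7 of 635 cells for Spp1, 0.945% for Gpm6b, 0.315% for Slc16a11 and 0.157% for Cd200r2. The Penk share, 0.998%, is close to that of B cells (0.472%), and is not read as a share of expressing cells.

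Within the AAV-sgSCR library all 9 members were at least 4-fold higher in CD90.1- than in CD90.2-dominant CD8 cells, where 3.21% of 9638 genes were. The members were proposed as marks of these CD90.1-high cells, so nothing is read from this count either. The ratios ran from 4.31 (3.00 to 6.38) for Cd200r2 through 14.8 (10.9 to 20.7) for Nrn1 and 25.9 (19.1 to 36.1) for Spp1 to 35.3 (14.9 to 109.5) for Igfbp7. Their size depends on the gate: with mixed-panel barcodes kept, the log2 ratio of Igfbp7 was 2.12, that of Spp1 2.97 and that of Cd200r2 1.60, under 4-fold. Thinning also took Cd200r2 under 4-fold (1.87), and with 5 times more of one tag than of the other Spp1 stood at 6.72. Ccl1 (382 and 3 UMIs) gave 82.3 (27.9 to 401), again through 2 cells. In AAV-sgBaat, 3 members had at least 20 UMIs in the higher population and 2 of them passed 4-fold, where 2.21% of 5939 genes did. These were Slc16a11 (27 and 1 UMIs, ratio 43.75, 7.21 to 1791, or 14.6 with 3 counts for the 1) and Cd200r2 (76 and 7 UMIs, ratio 17.6, 8.14 to 45.2). Spp1 was 3.24 times higher (1.82 to 5.95), and Nrn1 had 18 and 0 UMIs. Between the libraries' CD90.2-dominant cells only 2 members could be compared: Nrn1 (42 and 0 UMIs) was at least 5.69-fold higher in AAV-sgSCR and Cd200r2 1.97 times (0.861 to 5.28), where 0.319% of 7838 genes passed 4-fold. The 12 mock CD90.1-dominant cells held 7 Spp1 and 2 UMIs each of Nrn1, Slc16a11 and Cd200r2, too few to place them.

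Over 46 pairs of library and cell class with at least 20 cells, 4 members (Ccl1, C2cd4b, Spp1 and Slc16a11) had their highest level in AAV-sgSCR CD90.1-dominant CD8 cells, and Cd200r2 had its highest in the AAV-sgBaat ones. Slc16a11 and C2cd4b were the most restricted. After the 2 CD90.1-dominant populations, Slc16a11 did not exceed 15.3 CPM (2 UMIs), and after AAV-sgSCR, C2cd4b did not exceed 7.67 CPM (1 UMI). Spp1 was next highest in monocytes and macrophages of AAV-sgBaat (157.5 CPM, 143 to 173), a cell type known to make osteopontin. AAV-sgSCR T cells of the other T class (84.6 CPM, 73.2 to 97.3) and AAV-sgSCR monocytes and macrophages (79.1, 70.95 to 87.9) followed, with overlapping intervals.

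The other members were shared with further lineages. Gpm6b was highest in mock plasmacytoid dendritic cells (141 UMIs in 65 of 186 cells, 90.4 CPM, 76.1 to 107), above the 35.2 CPM (30.55 to 40.45) of the CD8 cells. Igfbp7 was highest in AAV-sgBaat basophils and mast cells (49.5 CPM), but its interval (27.1 to 83.0) includes the CD8 level of 47.6, and AAV-sgBaat granulocyte precursors had 36.9 (26.95 to 49.4). Nrn1 was at 176 CPM (112 to 264.5) in 21 AAV-sgSCR CD8 cells below the tag minimum, not separable from the 168 CPM of the CD90.1-dominant cells, and at 46.6 CPM (4 UMIs) in AAV-sgSCR regulatory T cells. Penk was highest in those regulatory T cells (11 UMIs in 2 of 20 cells, 128 CPM, 63.9 to 229). Cd200r2 came next in NK and ILC1 cells, at 32.3 CPM (23.2 to 43.9) in AAV-sgSCR and 23.1 (13.9 to 36.0) in AAV-sgBaat.

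Ccl1 was also carried by single cells elsewhere. A mock barcode of mixed panels held 83 Ccl1 UMIs, an AAV-sgSCR barcode of the other T class with 16 NK panel UMIs held 70, and an AAV-sgBaat NK or ILC1 cell held 25. Each also held Xcl1, a chemokine of NK and activated CD8 cells, at 254, 116 and 106 UMIs, and none held another member. The 2 richest CD90.1-dominant CD8 cells held 302 and 252 Xcl1 UMIs and 4 and 7 other members.

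**Figure D2:**
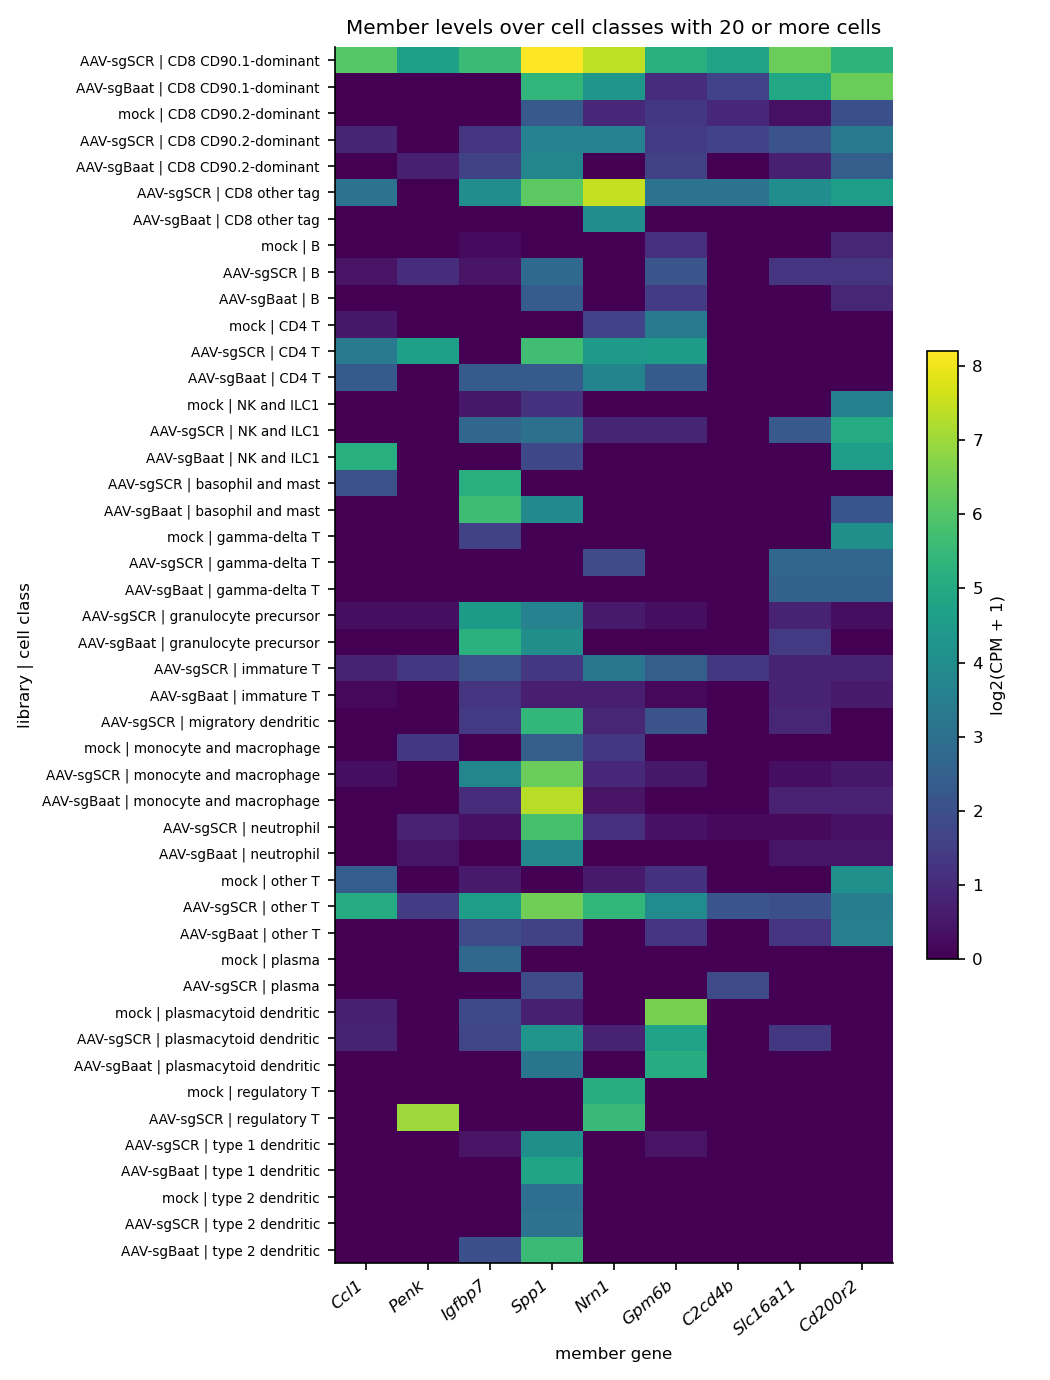
Level of each member, as log2(CPM + 1) by colour, in the 46 pairs of library and cell class with at least 20 cells. The top row, AAV-sgSCR CD90.1-dominant CD8 cells, is bright across all 9 genes, while Gpm6b is brighter in mock plasmacytoid dendritic cells and Spp1 is also high in monocytes and macrophages.

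The members were found together in single cells. Of the 1024 AAV-sgSCR CD90.1-dominant CD8 cells, 342 (33.4%, 30.5% to 36.4%, exact binomial 95%) held 2 or more members and 171 (16.7%) held 3 or more, with up to 8 in a cell. At 2000 UMIs each, 183 of 1002 (18.3%, 15.9% to 20.8%) held 2 or more and 76 (7.58%) held 3 or more. AAV-sgBaat CD90.1-dominant cells gave 3 of 190 (1.58%, 0.327% to 4.55%) and 1 of 190, where the AAV-sgSCR share would give 14.4 cells with 3 or more. AAV-sgSCR CD90.2-dominant cells gave 2 of 617 with 2 or more, and AAV-sgSCR B cells 1 of 635 (median 3053 UMIs before thinning, against 4966). The members were chosen for their levels in the AAV-sgSCR CD90.1-high cells, so lower shares in the other populations follow from that choice and are a description.

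The pairs split the members into 7 and 2. This split was made after the values were seen. At equal depth, 20 of the 21 pairs within Ccl1, Penk, C2cd4b, Igfbp7, Nrn1, Gpm6b and Spp1 were found together more often than the product of their shares gives, with a median of 3.77 times. In 14 of these pairs the counting interval lay above 1, and the pair under 1 (Ccl1 with C2cd4b) expected 0.23 cells. Spp1 and Nrn1 shared 80 cells where 30.5 were expected (2.62 times, 2.08 to 3.26), and Igfbp7 and Gpm6b shared 22 where 4.74 were expected (4.64 times, 2.91 to 7.02).

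Cd200r2 went the other way, and Slc16a11 less clearly. All 14 pairs of either gene with the 7 were under 1 at equal depth (median 0.25), 4 of them with the interval below 1, and 12 of 14 were under 1 without thinning. Of the 4, Slc16a11 had only the pair with Igfbp7. Without thinning no Slc16a11 interval lay below 1, and it stood at 1.27 times (0.794 to 1.92) with C2cd4b and 1.05 (0.8235 to 1.32) with Nrn1. Slc16a11 was then in 18.7% (13.7% to 24.6%) of cells with 2 or more of the 7 and 21.4% (18.1% to 24.9%) of cells with 0. At equal depth Igfbp7 shared 0 cells with Slc16a11 (7.98 expected) and 0 with Cd200r2 (5.96 expected). Without thinning Igfbp7 and Slc16a11 shared 19 cells where 27.97 were expected (0.679 times, 0.409 to 1.06), an interval that includes 1. At equal depth Spp1 shared 4 with Cd200r2 (12.7 expected). With each other, Slc16a11 and Cd200r2 shared 17 cells where 9.19 were expected (1.85 times, 1.08 to 2.96). Cells are not replicates, and all of these come from 1 library.

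**Figure D3:**
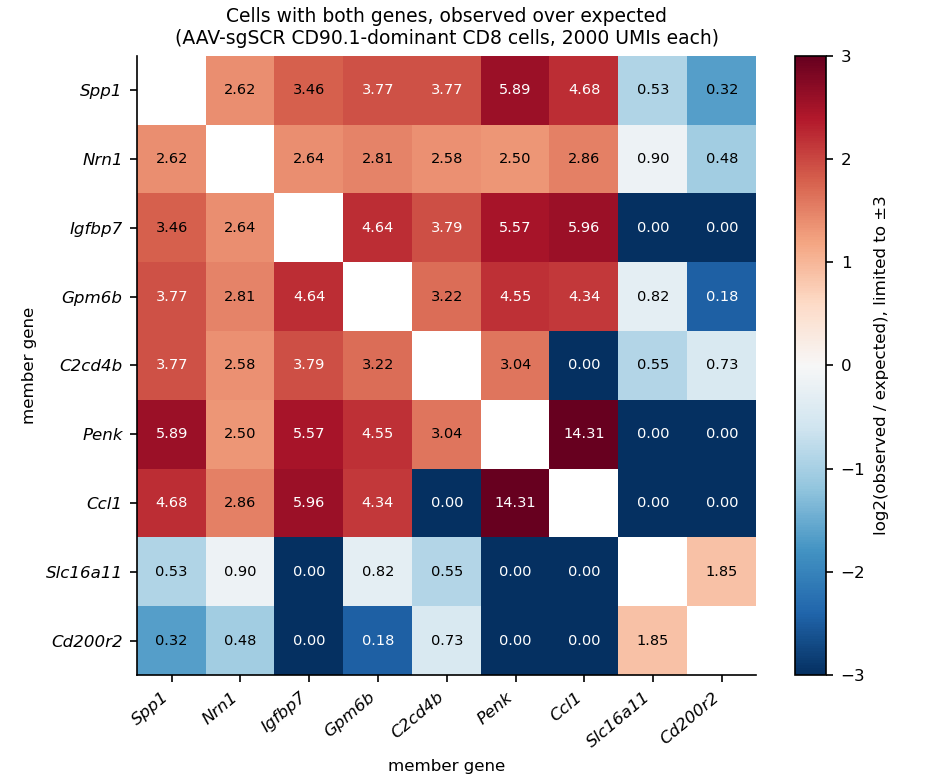
Cells with both genes of a pair over the number expected from their separate shares, in 1002 AAV-sgSCR CD90.1-dominant CD8 cells thinned to 2000 UMIs; colour is the log2 of the ratio, limited to 3 either way. The 7 genes at the upper left are red with each other, except Ccl1 with C2cd4b, and blue or near white with Slc16a11 and Cd200r2, which are red with each other; 7 pairs at 0.00 shared no cell, most of them with few cells expected.

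Between the libraries, the 7 are the members past 4-fold in the contrast that chose them, so their count there restates that choice and is only a description. At equal depth, 2 or more of the 7 were found in 137 of 1002 AAV-sgSCR CD90.1-dominant cells (13.7%, 11.6% to 15.96%) and in 1 of 190 AAV-sgBaat ones (0.526%, 0.0133% to 2.90%). At least 1 of Slc16a11 and Cd200r2 was found in 17.7% (15.35% to 20.2%) and 20.5% (15.0% to 26.97%), which overlap. Among cells with 0 of the 7, Cd200r2 was in 70 of 688 AAV-sgSCR cells (10.2%, 8.02% to 12.7%) and 32 of 174 AAV-sgBaat cells (18.4%, 12.9% to 24.96%). Slc16a11 was in 81 (11.8%, 9.46% to 14.4%) and 5 (2.87%, 0.940% to 6.58%). Among cells without the 7 at equal depth, the intervals of the 2 libraries thus did not overlap, with Cd200r2 higher in AAV-sgBaat and Slc16a11 higher in AAV-sgSCR. Without thinning those of Cd200r2 overlapped, at 18.3% (15.2% to 21.7%) in AAV-sgSCR and 23.0% (17.2% to 29.7%) in AAV-sgBaat. Those of Slc16a11 did not, at 21.4% (18.1% to 24.9%) and 6.42% (3.36% to 10.9%). All of these intervals count cells of 1 library each and leave out variation between animals.

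Detection of most members followed the amount of CD90.1 on the cell. They were proposed as marks of CD90.1-high cells, so this too is a description. Of the quartile of AAV-sgSCR CD90.1-dominant cells with the least tag (88 to 723 tag UMIs), 7.97% (4.93% to 12.0%) held 2 or more members at 2000 UMIs, against 30.7% (25.0% to 36.8%) of the quartile with the most (1392 to 5053). The 2 quartiles between held 16.4% and 18.0%. From the lowest to the highest quartile Spp1 went from 5.58% to 28.7%, Nrn1 from 11.95% to 29.9%, Igfbp7 from 2.39% to 13.9% and Gpm6b from 0.797% to 13.1%. Cd200r2 went the opposite way, from 11.95% to 3.19%, and Slc16a11 was at 11.95% and 7.97%. Median RNA depth before thinning was 4498 UMIs in the lowest and 5312 in the highest quartile, and its part in the pattern beyond thinning was not tested.

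**Figure D4:**
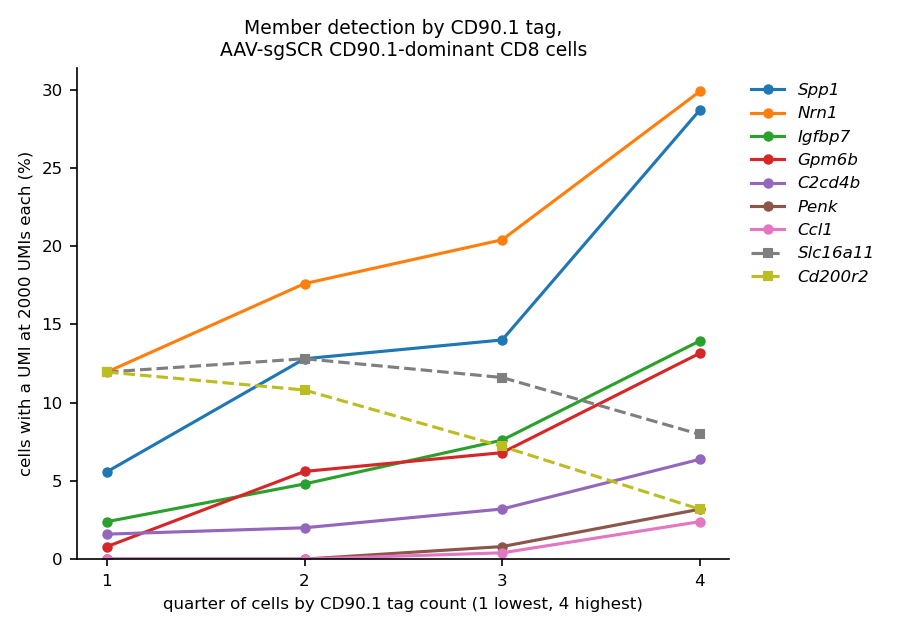
Share of AAV-sgSCR CD90.1-dominant CD8 cells with each member at 2000 UMIs per cell, by quartile of the CD90.1 tag count (250 or 251 cells each). Solid lines are the 7 members found together, which are highest in the quartile with the most tag; the dashed lines, Slc16a11 and Cd200r2, are lowest there.

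Cells with the 7 and cells with Cd200r2 also differed in other genes. The 137 cells with 2 or more of the 7 were set against the 70 cells with Cd200r2 and 0 of the 7, all at 2000 UMIs. Tcf7 and Slamf6, genes of progenitor-like exhausted cells, were in 20.4% (14.0% to 28.2%) and 23.4% (16.6% to 31.3%) of the former and in 0 of 70 of the latter, which by the same limit of 3 cells allows up to 4.29%. Gzma and Gzmb, cytotoxic granule proteases, were in 6.57% (3.05% to 12.1%) and 1.46% of the former and in 78.6% (67.1% to 87.5%) and 38.6% (27.2% to 51.0%) of the latter. Tox (59.1% and 57.1%), Lag3 (42.3% and 40.0%) and Pdcd1 (47.4% and 35.7%) were common in both. These 7 genes come from the list of T cell state genes. The low Tcf7 and Slamf6 and the higher granzymes were not particular to the cells with Cd200r2. In the 81 AAV-sgSCR cells with Slc16a11 and 0 of the 7, Tcf7 was in 1.235%, Slamf6 in 0 cells, Gzma in 54.3% and Gzmb in 28.4%. In the 551 AAV-sgSCR cells with 0 members these genes were in 2.54%, 3.99%, 45.2% and 20.15%.

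Some other genes also differed between the cells with 2 or more of the 7 and those with Cd200r2. Tnfrsf4 (OX40) was in 35.8% (27.8% to 44.4%) of cells with 2 or more of the 7 and in 1.43% of those with Cd200r2, and Xcl1 in 66.4% (57.9% to 74.3%) and 22.9% (13.7% to 34.45%). The chemokine Ccl5 was in 29.2% (21.7% to 37.6%) and 100% (70 of 70), the NK receptor gene Klrd1 in 37.96% and 68.6%, and the signalling adaptor Fcer1g in 3.65% and 40.0%. Ly6a was in 32.8% and 0 of 70. Ccl5, Klrd1, Fcer1g and Ly6a were picked after their values were seen. In all 190 AAV-sgBaat CD90.1-dominant cells Tnfrsf4 was in 0.526%, Gzma in 55.3%, Gzmb in 35.8%, Ccl5 in 92.1%, Ly6a in 2.63% and Tcf7 in 10.5%. Klrd1 was in 52.1%, Fcer1g in 39.5% and Xcl1 in 29.5% of them. Tcf7 and Klrd1 lay between the 2 sets of AAV-sgSCR cells. For the others the AAV-sgBaat share was nearer to that of the AAV-sgSCR cells with Cd200r2. In the AAV-sgSCR cells with Slc16a11 and 0 of the 7, Gzma was in 54.3%, Ccl5 in 97.5% and Tnfrsf4 in 2.47%. The nearness is thus not particular to the cells with Cd200r2.

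**Figure D5:**
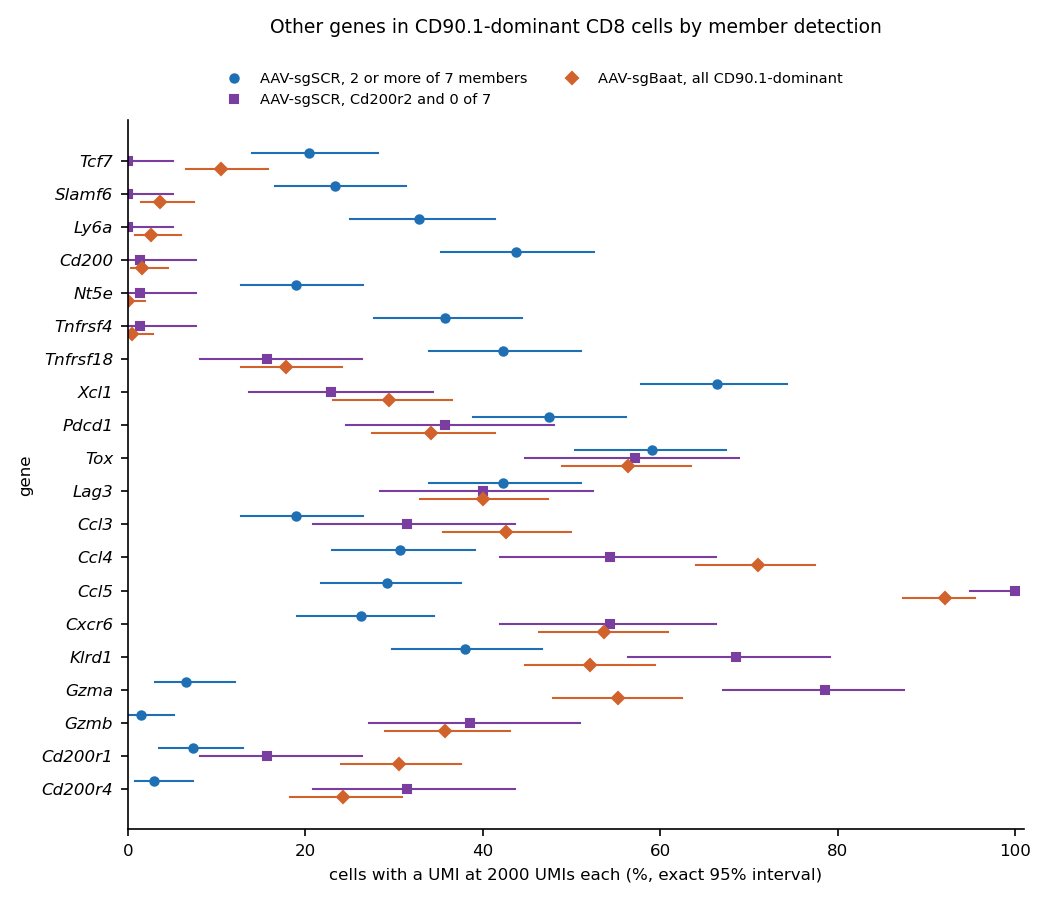
Share of CD90.1-dominant CD8 cells with a UMI of each gene at 2000 UMIs per cell, with exact binomial 95% intervals, for AAV-sgSCR cells with 2 or more of the 7 members (137), AAV-sgSCR cells with Cd200r2 and 0 of the 7 (70) and all AAV-sgBaat cells (190). The cells with the 7 are highest from Tcf7 to Xcl1 and lowest from Ccl3 to Cd200r4, while the 3 groups overlap for Tox and Lag3.

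In the CD200 pathway the ligand was in more of the cells with 2 or more of the 7 than of the cells with Cd200r2. Cd200, the ligand of the inhibitory receptor encoded by Cd200r1, was in 43.8% (35.3% to 52.5%) of cells with 2 or more of the 7 and in 1.43% (0.0362% to 7.70%) of cells with Cd200r2. The receptor family members Cd200r1 and Cd200r4 were in 7.30% (3.56% to 13.0%) and 2.92% (0.801% to 7.31%) of the former and in 15.7% (8.11% to 26.4%) and 31.4% (20.8% to 43.6%) of the latter, so the intervals overlapped for Cd200r1. Over whole populations Cd200 had 421 UMIs in AAV-sgSCR CD90.1-dominant cells (73.45 CPM) and 9 in AAV-sgBaat (9.69 CPM), while the intervals of Cd200r1 (143.9 to 164.4 and 153.6 to 209.3 CPM) and Cd200r4 (125.0 to 144.2 and 140.7 to 194.2 CPM) overlapped. Both receptors had their highest level of any cell class in the AAV-sgBaat CD90.1-dominant cells. The ligand was not particular to CD8 cells. Cd200 was higher in AAV-sgSCR migratory dendritic cells (61 of 104 cells, 140 CPM, 119.7 to 162.7). It stood at 88.5 CPM (74.3 to 104.5) in mock plasmacytoid dendritic cells, which overlaps the AAV-sgSCR CD90.1-dominant interval (66.6 to 80.8).

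Receptors, processing enzymes and relatives of the members were a list of 46 genes. Of these, 15 had at least 20 UMIs in whichever of the AAV-sgSCR and AAV-sgBaat CD90.1-dominant populations had the higher level. At least 2-fold higher in AAV-sgSCR were 3 (Cd200, Nt5e and Emb), at least 2-fold lower 0, where 5.29% and 1.28% of all genes were, and the median log2 ratio was 0.37 (all genes 0.11). Nt5e (CD73, which makes adenosine) had 179 and 5 UMIs, and Emb, a partner of monocarboxylate transporters, 627 and 45. Among the integrins and Cd44 that bind osteopontin, Cd44 was at 129 and 82.9 CPM, Itgav at 107.5 and 53.9, Itga4 at 406.5 and 382 and Itgb1 at 117 and 121. Itgb3 had 24 and 1 UMIs and Itga9 5 and 3. Ccr8, the receptor of Ccl1, had 10 and 1 UMIs in these cells. The opioid receptor genes Oprm1, Oprd1, Oprk1 and Oprl1 had 0 UMIs in both, while Pcsk1, a convertase that cuts prohormones, had 30 and 0.

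The antigen-receptor response list and the state list were mixed. Of the 20 response genes, 15 could be compared between AAV-sgSCR and AAV-sgBaat CD90.1-dominant cells, with 3 at least 2-fold higher in AAV-sgSCR and 2 lower (median log2 0.27), where 5.29% and 1.28% of all genes were, as for the state genes below. The 3 were Tnfrsf4 (327 and 2 UMIs), Il2ra (66 and 0) and Csf1 (105 and 5). The 2 were Ccl3 (298 and 626 CPM, from 1710 and 581 UMIs) and Ccl4 (696 and 1557 CPM, from 3987 and 1446 UMIs). Of the 14 state genes, 3 were higher (Ctla4, Tigit and Ccr7) and 2 lower (Tcf7 and Gzmb), with a median of 0.10. Tcf7 was thus lower over all AAV-sgSCR cells (29.8 and 102 CPM, from 171 and 95 UMIs), although it was in more of the cells with the 7 than in the others.

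Further genes were found more often in the AAV-sgSCR cells with several members. The 76 cells with 3 or more members were set against the 551 with 0, at 2000 UMIs each. Only the 1869 genes found in at least 10 of the 76 cells were counted, with the members, T cell receptor, mitochondrial and ribosomal genes left out. Of these, 8.51% were found at least 2 times as often in the former and 0.803% at most 0.5 times as often. Genes rare in the 76 cells could not enter, such as Gzma (5 of 76 and 249 of 551 cells) and Cd200r4 (2 and 128). The 2 shares are therefore not set against each other. By ratio the 10 genes most like the members were Unc13b, Angptl2, Slc17a6, Adarb2, Ly6a, Gm6093, Stfa3, Marcksl1, Ms4a4c and Ctsl. For this ratio 0 cells were set to 3 while 1 or 2 cells were kept, so the order is partly set by that rule and is not read. Slc17a6, a vesicular glutamate transporter, was in 18 of 76 cells and 0 of 551, and over whole populations it had 90 UMIs in AAV-sgSCR and 1 in AAV-sgBaat. Stfa3, a cystatin family member, was in 11 of 76 and 0 of 551 (136 and 0 UMIs). Unc13b, which acts in vesicle release, was in 12 and 1, and Ly6a in 25 and 5. Stfa3 and Gm6093 have near-identical relatives, so their counts are uncertain.

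Markers of other cell types were counted in the same cells. The gate had left out barcodes with at least 4 monocyte and macrophage, 10 neutrophil or 3 basophil and mast cell marker UMIs. The sums below are thus capped per cell by the gate, and nothing is read from their likeness between sets of cells. Summed monocyte and macrophage markers, all 7 of them detected, stood at 63.7 CPM in AAV-sgSCR CD90.1-dominant cells, 63.7 in its CD90.2-dominant cells and 84.0 in AAV-sgBaat CD90.1-dominant cells. Within AAV-sgSCR they stood at 59.2 CPM in cells with 3 or more members and 59.9 in cells with 0. The 3 neutrophil markers were at 404 CPM in AAV-sgSCR and 306 in AAV-sgBaat CD90.1-dominant cells, and at 460.5 and 471 in cells with 3 or more members and with 0. Basophil and mast cell markers were at 5.41 CPM in AAV-sgSCR and 20.5 in AAV-sgBaat CD90.1-dominant cells. Markers of granulocyte precursors, which also held Igfbp7, and of plasmacytoid dendritic cells, which also held Gpm6b, were not summed. In mock CD90.2-dominant cells the monocyte and neutrophil sums were 5.11 and 3.61 CPM, so both were higher in the 2 AAV libraries, and their part in the members' levels beyond these values was not tested.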

How the data were processed

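The authors deposited raw UMI counts per gene and barcode, counted with Cell Ranger 6.0.1 on mm10 per the file headers and the submitters' processing notes, with no normalization. The antibody tags are read from the same count matrices. Barcodes with at least 500 genes, 1000 gene UMIs and at most 10% mitochondrial UMIs were kept. A CD8 cell needed 2 UMIs summed over Cd3d, Cd3e, Cd3g, another 2 over Cd8a and Cd8b1, no Cd4 or Foxp3, under 2 UMIs of immature T genes and no other lineage's panel. Ties between panels outside T cells were settled after seeing the data. No doublet caller was used in the main setting. For calls, sums under 3 counts were set to 3; 1 or 2 counts also have a plain ratio, and the limit beside a 0 is 3 counts, and genes with at least 20 UMIs in the higher population were compared. Cells were thinned to 2000 UMIs with a fixed seed, leaving out shallower cells (22 AAV-sgSCR and 29 AAV-sgBaat CD90.1-dominant). The ratio rule was tested on simulated data. The members and gene lists were chosen with earlier results of these data known; named genes are the 9 members, the listed partners, response and state genes, and the 10 most like genes. Intervals (95%) are Poisson for counts and Clopper-Pearson for shares, both exact. Tools were Python 3.11.15, numpy 2.4.6, scipy 1.17.1, pandas 2.3.3, scanpy 1.11.5 and matplotlib 3.10.9.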

Additional observations from a re-analysis of the deposited data

How the results depend on the processing

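No paired analysis was possible because each group is 1 library with no replicate number. Each of the 4 counts and shares the report leads with was recomputed under 12 alternatives: other tag minimums and ratios, a looser CD8 gate, mixed or immature barcodes kept, other barcode filters, Scrublet scores, thinning, the 5 richest cells left out and, added after seeing the data, shared barcodes left out. Members at least 4-fold higher in AAV-sgSCR than AAV-sgBaat numbered 5 to 8, and those higher in CD90.1- than CD90.2-dominant cells 8 or 9. Cells with 2 or more members made up 18.3% after thinning, which lowers detection by construction, and 31.4% to 35.7% otherwise. Members highest in AAV-sgSCR CD90.1-dominant cells numbered 3 to 6, and 7 without the 5 richest cells of each member. Single directions turned in 2 cases: the log2 ratio of Cd200r2 between AAV-sgSCR and AAV-sgBaat was 1.04 with immature T barcodes kept (main -1.05), and that of Ccl1 was -0.63 without its 5 richest cells, where the AAV-sgBaat side is the value of 3 counts. Keeping those barcodes also took Nrn1 from 3.12 to 4.93, Spp1 from 2.85 to 4.82 and Slc16a11 from 1.47 to 3.31. The AAV-sgBaat immature T class held little of these genes: 0.496 CPM of Cd200r2, 0.743 of Slc16a11 and 0.62 each of Nrn1 and Spp1. The cause of the Cd200r2 turn was not tested beyond these values. A count of 0 among the 219 AAV-sgBaat cells allows a share of up to 1.37%.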

Other observations

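Barcodes left out for carrying another lineage's panel held many of the members' molecules in the AAV-sgSCR library: 2513 of 5393 Spp1 UMIs, 964 of 2151 Nrn1 UMIs and 398 of 903 Slc16a11 UMIs, against 1686, 965 and 462 in the CD90.1-dominant CD8 cells. In mock, 132 of 165 Igfbp7 UMIs and 85 of 105 Ccl1 UMIs lay in such barcodes. In AAV-sgSCR the class of T cells that met neither the CD8 nor another T gate held 17 of 455 cells with 2 or more of the 7 members found together at 2000 UMIs (3.74%, 2.19% to 5.91%), and the CD8 cells below the tag minimum held 2 of 21 with 2 or more members. The richest Spp1 barcode of AAV-sgSCR was a neutrophil with 273 UMIs and that of mock a hepatocyte with 84.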
